A study of Rattus norvegicus with 4 samples.

Results

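Livers of 2 male Wistar rats were compared, 1 killed after 6 h under 4.5% sevoflurane and 1 killed as the sevoflurane control as soon as it had lost consciousness. These are 2 of the 4 samples of the series, and each is a single bulk RNA library. All genes were described by the log2 change, which is log2((TPM + 1)/(TPM + 1)) of the 6 h liver over its control. Here TPM is the deposited transcript level, corrected for gene length and scaled within each library. Over the annotated genes these values do not add up to the same total in each library. Of 16992 annotated genes, 9754 had TPM above 2 in either of the 2 libraries and formed the set described here. The desflurane control, a liver from a rat made unconscious for less than 1 min with 6% desflurane, served as a further reference, and its difference from the sevoflurane control was the only available measure of how far 2 briefly exposed livers lie apart.

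All rats were wild type, had been bought at 6 weeks of age and kept for at least 1 week, went without food and water for 2 h before the experiment, and breathed the agent through a nose cone in a 3 L/min flow of oxygen-enriched air. All were killed at about the same time in the afternoon, and the left lateral lobe was taken. The sources used here do not say that the rats were fed during the 6 h, so the effects of the agent, of lying unconscious for 6 h and of 6 h without food cannot be told apart. With 1 rat for each condition no difference has a replicate check, and no p-value or SD between rats was calculated.

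Sevoflurane is a fluorinated ether that is inhaled as a general anesthetic, and a small share of it is oxidized in the liver by the cytochrome P450 CYP2E1. Hepatocytes, the main cells of the liver, sense foreign compounds through nuclear receptors, above all CAR (*Nr1i3*) and PXR (*Nr1i2*), which switch on P450 enzymes together with the reductase and the heme they need. Hepatocytes also make glucose, urea and ketone bodies, and they adjust these pathways to hormones and to food. Kupffer cells, the resident macrophages of the liver, and lymphocytes in its sinusoids contribute RNA to the same extract.

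The 2 sevoflurane libraries and the desflurane control corresponded to between 4.47 and 5.40 Gb of aligned sequence, and between 9474 and 9572 genes had TPM above 2 in each. The 18S ribosomal RNA gene *Rn18s*, a remnant of rRNA removal, was at 5139 TPM in the sevoflurane control, 13226 after 6 h of sevoflurane and 20510 in the desflurane control. All 17 hepatocyte markers were above 2 TPM, and their summed level was 171689 TPM in the sevoflurane control, 164021 after 6 h and 166360 in the desflurane control. The most abundant gene was albumin (*Alb*), with 83368, 79111 and 77519 TPM in the same order. Transferrin (*Tf*), *Ahsg*, *Ttr*, *Serpina1*, *Apoe* and *Gc*, which all encode secreted plasma proteins, changed by between -0.14 and 0.09 on the log2 scale. Markers of pancreatic acinar cells stood out in the sevoflurane control. The chymotrypsinogen gene *Ctrb1* was at 8.94 TPM there and was listed at 0 in both of the other libraries, and the 20 acinar markers in the tables other than *Cela1*, which lay between 15.1 and 22.8 TPM in each library, summed to 56.0 TPM in that control, 1.58 after 6 h and 3.20 in the desflurane control. This brought 11 acinar genes into the count of lower genes, and 0 of them were lower than in the desflurane control by 2-fold.

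Across the 9754 genes, 142 were at least 2-fold higher after 6 h of sevoflurane (1.46%) and 217 were at least 2-fold lower (2.22%). Between the 2 control livers, 73 of 9756 genes were at least 2-fold higher in the desflurane control (0.748%) and 77 were lower (0.789%). The median size of the log2 change was 0.21, against 0.14 between the controls, and the SD over genes was 0.45 against 0.31. The size of the control difference was below 0.58 for 95% of genes, and 12.7% of genes changed by more than this after sevoflurane. A stricter set was at least 2-fold away from both control livers in the same direction. It held 84 higher genes (0.861%) and 95 lower genes (0.974%), which were 59.2% and 43.8% of those that passed against the sevoflurane control alone. Of these 179 genes, 37 have a row that overlaps another gene, so reads there may be shared. Both comparisons share the 6 h library, and the yardstick shares the sevoflurane control. Without any limit of size, 46.8% of the genes were above both controls after 6 h and 31.6% were below both, so lying outside the controls by itself is common.

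**Figure D1:**
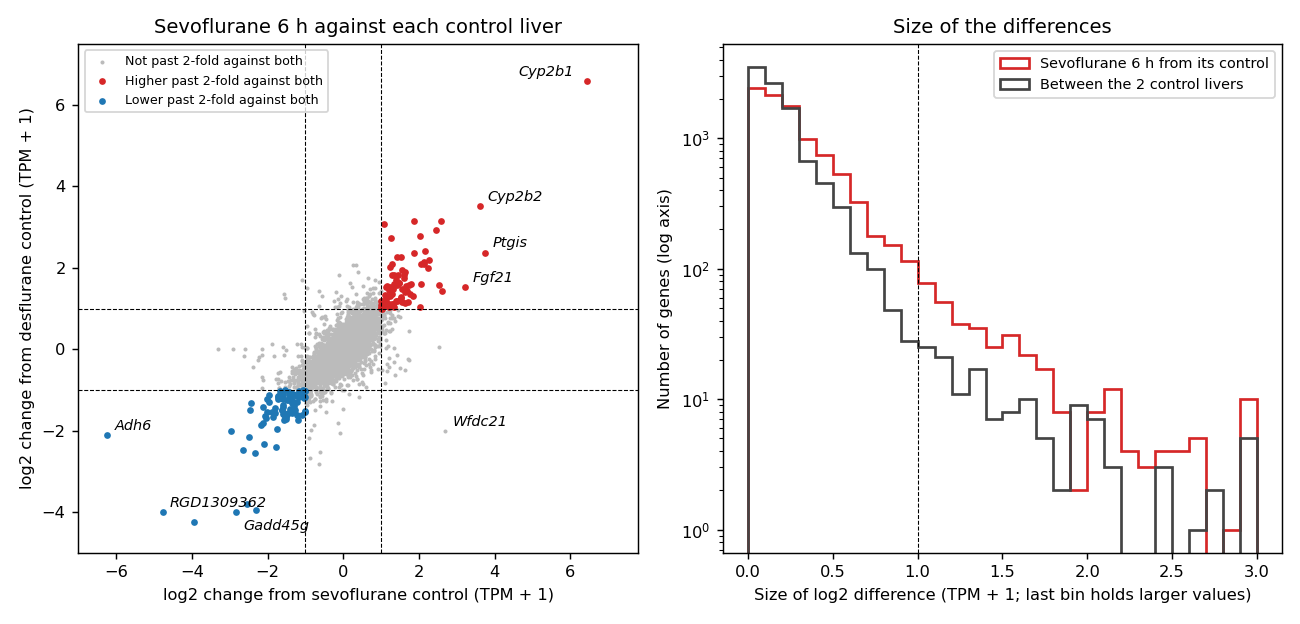
Left, the log2 change of each of the 9754 genes after 6 h of sevoflurane from the sevoflurane control (x axis) and from the desflurane control (y axis), with dashed lines at 2-fold, 84 genes higher past both in red and 95 lower past both in blue. Right, the number of genes (log axis) by the size of the log2 difference in steps of 0.1, where the red line for sevoflurane lies above the dark line for the 2 controls at most sizes past the smallest, and the median sizes are 0.21 and 0.14.

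The spread was largest at both ends of the range of levels. Among the 1878 genes with a mean of at most 5 TPM over the 2 sevoflurane libraries, the SD of the change was 0.55, and the control difference had an SD of 0.40. For 4153 genes between 5 and 20 TPM these values were 0.40 and 0.28, and for 2803 genes between 20 and 100 TPM they were 0.42 and 0.27. For the 920 genes above 100 TPM they were 0.52 and 0.35. Of these, 27 were past 2-fold between the controls, 26 were higher and 19 were lower by 2-fold after sevoflurane, and 17 and 6 of these passed against both controls.

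Drug-metabolizing enzymes were among the genes with the largest differences past both controls on the high side, and an alcohol dehydrogenase and interferon-inducible GTPases among those on the low side. *Cyp2b1*, a P450 that phenobarbital-like compounds induce through CAR, was at 17.8 TPM in the sevoflurane control, 16.1 in the desflurane control and 1632 after 6 h of sevoflurane. The 6 h liver stood far above both controls, which were alike, and the log2 change was 6.44. *Cyp2b2*, its closest paralog, was at 153, 165 and 1893 TPM in the same order (log2 change 3.62). The 2 genes are nearly identical in sequence, so the way reads were divided between them is uncertain. The files place *Cyp2b1* on chromosome 7 from 99158102 to 99181774 and *Cyp2b2* on chromosome 1 from 83103925 to 83119578 in the rn6 build, both on the plus strand.

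Several of the other leading genes act outside drug metabolism. *Ptgis*, prostacyclin synthase, was at 0.134 TPM in the sevoflurane control, 1.94 in the desflurane control and 14.2 after 6 h. *Fgf21*, a hormone that the liver releases in fasting and amino acid shortage, was at 12.2, 41.3 and 121 TPM. In both genes the 6 h value was the highest, but the controls differed from each other by 1.37 and 1.68 on the log2 scale. *Gadd45b*, a stress gene that acts on p38 and JNK signaling, had controls of 3.29 and 1.93 TPM and a 6 h value of 24.8. *Noct*, nocturnin, a circadian phosphatase of NADP(H), was at 3.52, 2.24 and 23.8 TPM. *Got1*, the cytosolic aspartate aminotransferase, was at 38.8, 40.3 and 189 TPM, and the phospholipid transporter *Mfsd2a* at 18.1, 21.5 and 88.9. In these 4 genes the controls were close together beside the distance to the 6 h liver. The others of the 15 genes with the highest changes were *Gstm3l*, a glutathione S-transferase (2.60), *Abcd2*, a peroxisomal fatty acid transporter (2.53), *Por* (2.15), *Mthfd2* (2.13), *Alas1* (2.13), *Tsku*, a secreted protein of the liver (2.06), and *RGD1311946* (2.06), which RefSeq also names *C1h11orf24*.

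On the low side, *Adh6*, an alcohol dehydrogenase, was at 162 TPM in the sevoflurane control, 8.36 in the desflurane control and 1.17 after 6 h. The 6 h value was the lowest, but the 2 controls already differed by -4.12 on the log2 scale, which is most of the change of -6.23. *RGD1309362*, an interferon-inducible GTPase, was at 119, 69.8 and 3.39 TPM and changed by -4.77. *Gadd45g*, a relative of *Gadd45b*, moved the other way from it, with 43.2, 97.6 and 5.17 TPM. *RGD1560242*, named *Cfap95* by RefSeq, was at 16.6, 20.6 and 0.138 TPM, and *Cfap126*, another gene named for cilia and flagella, at 53.6, 47.1 and 7.65. *Tsc22d1*, a leucine zipper regulator of transcription, was at 193, 153 and 33.7 TPM. Its 2 control values lay close together, as did those of both *Cfap* genes. *RGD1562844* (*Serpinb9b* in RefSeq) was at 4.77 and 12.9 TPM in the controls and was listed at 0 after 6 h, so no fold is given. The other genes of the 15 were *MGC108823* (-2.96), *Gbp2* (-2.47), *Gbp5* (-2.44), the pro-apoptotic BH3-only gene *Bmf* (-2.34), *Cish*, a feedback inhibitor of STAT5 (-2.31), *Ubd*, a ubiquitin-like modifier induced by interferon (-2.18), the chemokine *Cxcl10* (-2.13) and *Irf1*, a transcription factor of the interferon response (-2.12).

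**Figure D2:**
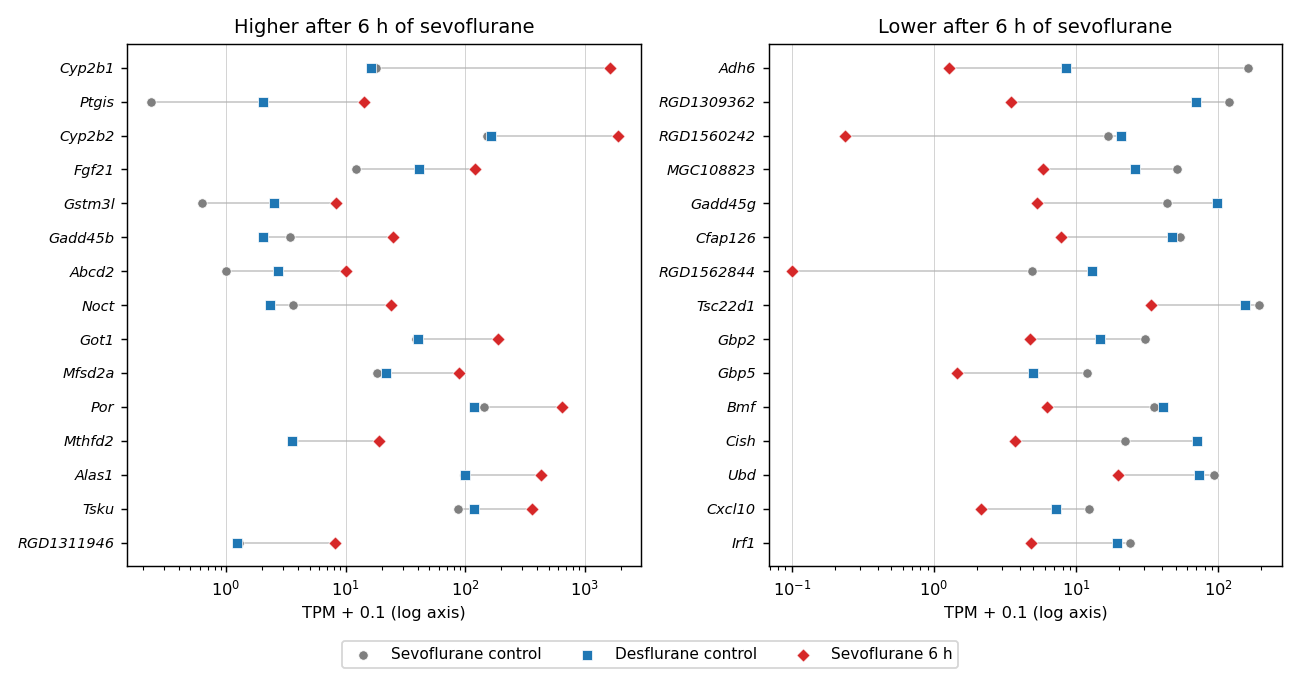
TPM (plus 0.1, log axis) of the 15 genes with the highest and the 15 with the lowest log2 change among those past 2-fold against both controls, with 1 point for each library (grey circle, sevoflurane control; blue square, desflurane control; red diamond, sevoflurane 6 h). The red point is the outermost in each row, and the controls are themselves more than 2-fold apart (log2 of TPM + 1) in *Ptgis*, *Fgf21*, *Gstm3l*, *Adh6*, *Gadd45g*, *RGD1562844*, *Gbp5* and *Cish*.

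To describe gene groups, 49 lists of genes by pathway, process or cell type were used, and medians were taken over all members in the tables. The median log2 change over the 9754 genes was 0.05, and that of the control difference was -0.03. The median was at least 0.5 in size in 10 lists, 3 higher and 7 lower. Of these, 9 had the same sign against the desflurane control, where 2 were still 0.5 or more in size. In 10 lists 0 members passed 2-fold in either direction. Counts of members past 2-fold are to be set beside 1.46% higher and 2.22% lower of the 9754 genes.

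**Figure D3:**
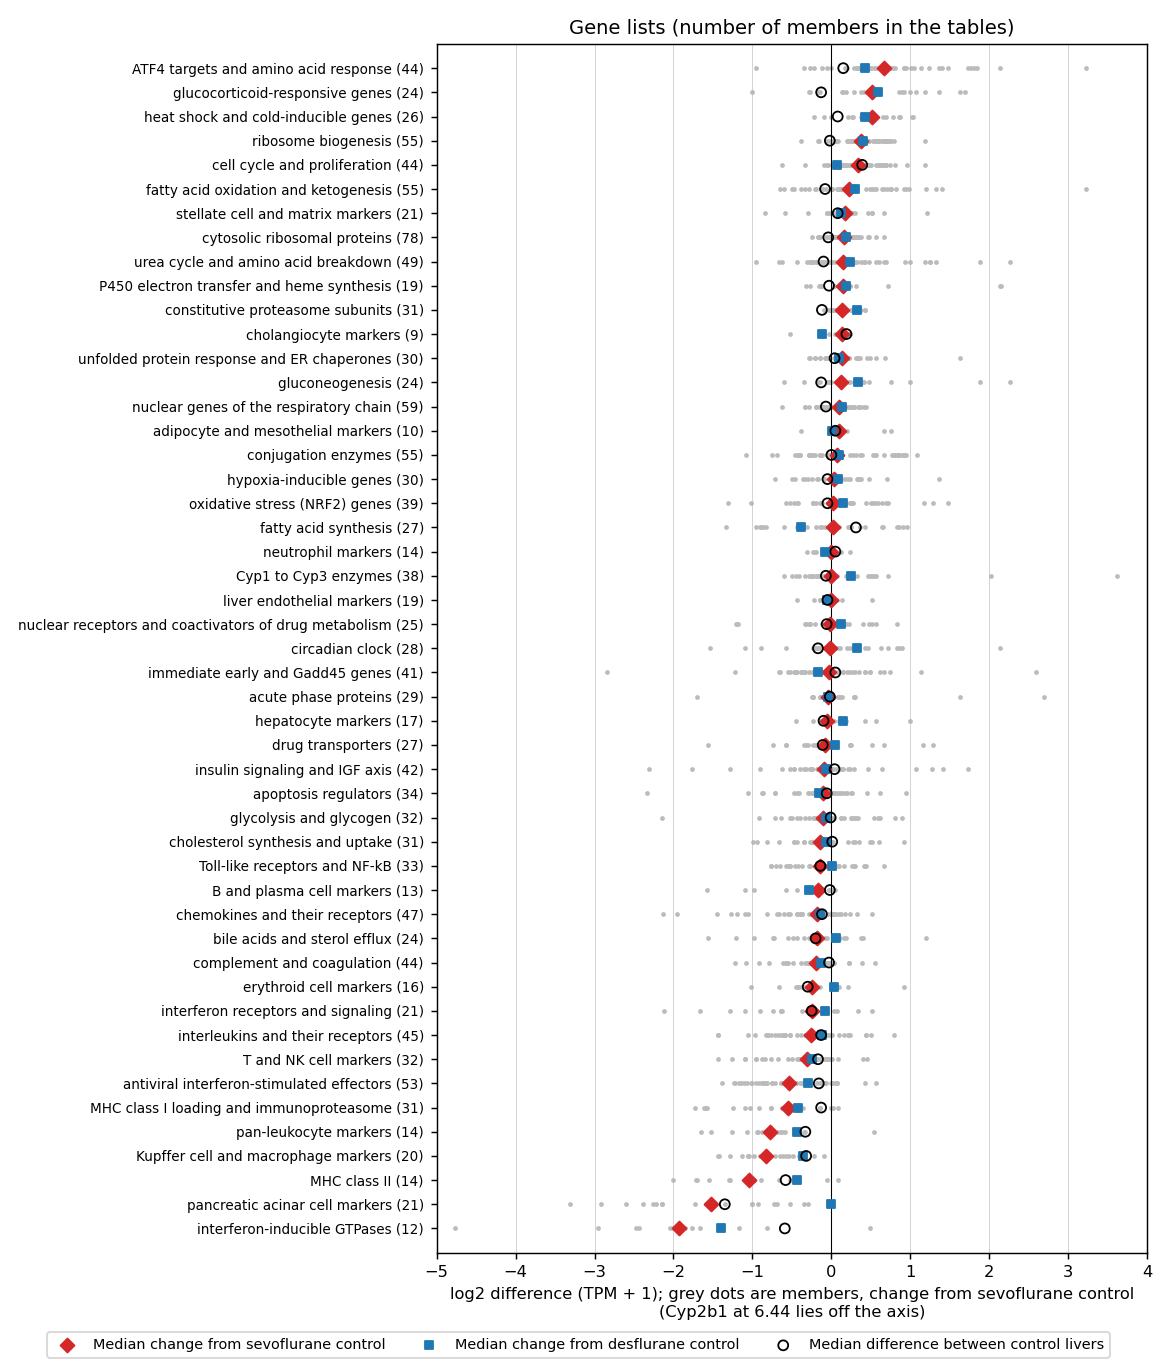
Log2 differences for 49 gene lists, sorted by the median change from the sevoflurane control (red diamonds), with the members as grey dots, the median change from the desflurane control as blue squares and the median difference between the 2 controls as open circles. The ATF4 list lies at the top with 0.66 and the interferon-inducible GTPases at the bottom with -1.93, and for pancreatic acinar markers the open circle lies near the red diamond and the blue square lies at 0.00.

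Among the enzymes that take the first step of drug metabolism, few genes were higher and the middle of the group did not move. Of the 38 *Cyp1* to *Cyp3* genes in the tables, 30 were above 2 TPM, 3 of these were 2-fold higher (beside 1.46% of all genes) and 0 were lower, and the median log2 change was -0.01. The 3 were *Cyp2b1*, *Cyp2b2* and *Cyp3a23/3a1*, and all passed against both controls. *Cyp3a23/3a1*, the main target of PXR in rat liver, was at 451 TPM in the sevoflurane control, 265 in the desflurane control and 1836 after 6 h. Its paralog *Cyp3a2* was at 2599, 1566 and 2437 TPM and *Cyp2e1*, which oxidizes sevoflurane, at 3361, 2034 and 2456, so in both the 6 h value lay between the controls. The row of *Cyp3a23/3a1* overlaps those of *Cyp3a2* and other genes on the genome, so reads may be shared. *Cyp2c12* had the lowest change of the list (-0.60), beside a control difference of 1.93.

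The partners of the P450 enzymes were higher at 2 points. *Por*, the reductase that feeds electrons to all microsomal P450 enzymes, was at 144 TPM in the sevoflurane control, 119 in the desflurane control and 642 after 6 h. *Alas1*, the rate-limiting enzyme of heme synthesis, was at 98.2, 100 and 433 TPM. The 2 controls differed by -0.27 on the log2 scale in *Por* and by 0.03 in *Alas1*, and the 6 h liver lay above both. The other 17 of the 19 members did not pass 2-fold, among them cytochrome b5 *Cyb5a* (0.24), *Pgrmc1* (0.16) and *Alad* (-0.32), and the median of the list was 0.15.

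Few conjugation and transport genes passed 2-fold. Of 55 conjugation enzymes, 51 were above 2 TPM, and 1 was 2-fold higher (*Nnmt*, which methylates nicotinamide, 27.7 to 59.7 TPM) and 1 lower (*Inmt*). Each is 1.96% of those above 2 TPM, beside 1.46% higher and 2.22% lower of all genes. Neither *Nnmt* nor *Inmt* passed against both controls. *Inmt*, an indolethylamine methyltransferase, was at 19.1 TPM in the sevoflurane control, 8.52 after 6 h and 1.94 in the desflurane control, so its direction depended on the control. The 8 *Ugt1a* rows changed by between 0.77 and 0.94, but these genes share their last exons and cannot be counted as separate. *Gstm1*, an abundant glutathione transferase, was at 1929 and 2779 TPM, and the estrogen sulfotransferase *Sult1e1* at 856 and 1619 TPM (log2 changes of 0.53 and 0.92). Of 27 transporters, 23 were above 2 TPM, 2 were 2-fold higher (8.70%) and 1, *Abcg8*, was lower (4.35%). *Abcb1a*, the efflux pump P-glycoprotein, was higher against both controls (13.5, 10.1 and 31.5 TPM in the sevoflurane control, the desflurane control and the 6 h liver). *Abcc3*, a basolateral efflux pump, was 2-fold higher against its own control only (5.96, 11.1 and 16.1 TPM).

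Of 25 nuclear receptors and coactivators, 0 were 2-fold higher and 3 were lower. *Nr1i3*, which encodes CAR, was at 52.9 TPM in the sevoflurane control, 37.3 in the desflurane control and 22.7 after 6 h. *Nr1i2*, which encodes PXR, had the highest change of the list at 0.83 (67.7, 54.2 and 121 TPM), short of 2-fold, beside 1.15 when measured from the desflurane control. *Foxa2*, a hepatocyte transcription factor, was the 1 member lower against both (30.5, 44.5 and 12.7 TPM). *Nr0b2*, the repressor SHP, was at 43.8, 16.6 and 18.4 TPM, so the 6 h value was within the range of the controls. The abundant members *Hnf4a* (-0.12) and *Rxra* (0.04) changed little.

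The targets of ATF4 were the list with the highest median. ATF4 is a transcription factor whose translation is favored when amino acids run short or the endoplasmic reticulum is stressed, and it turns on amino acid synthesis, amino acid import and its own feedback genes. Of the 44 targets in the tables, 39 were above 2 TPM, 13 were 2-fold higher (33.3%, beside 1.46% of all genes), 0 were lower, and 9 of the 13 passed against both controls. The median was 0.66 from the sevoflurane control, 0.42 from the desflurane control and 0.15 between the controls. The 6 h liver was above both controls in 34 of the 44 members and below both in 3. Over all 16992 genes it was above both in 34.7% and below both in 26.0%. Over the 9754 genes above 2 TPM these shares were 46.8% and 31.6%.

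To show what the regulatory sequence of these genes holds, the 250 bases before the start of the 2 members with the highest (*Fgf21* 3.22, *Mthfd2* 2.13) and the 2 with the lowest change (*Slc6a9* -0.22, *Cth* -0.96) among those above 2 TPM in the RefSeq table are printed (GRCr8 build), 5′ to 3′ along the gene, with the ATF4 element TGATGNAA on either strand in capitals. The element was found in 9 of the 36 members with a promoter in the RefSeq table (25.0%), in 3.27% of the 27457 promoters of that table, counted as the first entry for each gene, and in 1.85% of those of the genes above 2 TPM that had one. The strands given are those of the genes. *Fgf21* (minus strand, chr1:105221377-105221626) holds it once, on the strand opposite to the gene, and *Mthfd2* (minus strand, chr4:117380351-117380600), *Slc6a9* (plus strand, chr5:136659826-136660075) and *Cth* (minus strand, chr2:249661067-249661316) do not hold these letters in this window. A match is a description of the letters and not a measured binding site.
Fgf21: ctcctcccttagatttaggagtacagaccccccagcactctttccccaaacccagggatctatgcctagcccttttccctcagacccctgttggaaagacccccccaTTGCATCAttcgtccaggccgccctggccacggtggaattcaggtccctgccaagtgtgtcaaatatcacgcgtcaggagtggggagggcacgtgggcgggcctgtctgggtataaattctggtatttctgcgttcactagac
Mthfd2: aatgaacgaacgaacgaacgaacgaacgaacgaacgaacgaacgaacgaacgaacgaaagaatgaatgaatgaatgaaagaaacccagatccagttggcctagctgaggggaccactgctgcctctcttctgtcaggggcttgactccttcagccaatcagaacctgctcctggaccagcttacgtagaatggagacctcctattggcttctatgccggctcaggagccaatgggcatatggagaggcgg
Slc6a9: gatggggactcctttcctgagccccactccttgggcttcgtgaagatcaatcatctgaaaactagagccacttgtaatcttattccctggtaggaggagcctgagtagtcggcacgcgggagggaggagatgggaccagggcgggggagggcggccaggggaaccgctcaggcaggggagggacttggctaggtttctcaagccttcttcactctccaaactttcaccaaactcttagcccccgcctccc
Cth: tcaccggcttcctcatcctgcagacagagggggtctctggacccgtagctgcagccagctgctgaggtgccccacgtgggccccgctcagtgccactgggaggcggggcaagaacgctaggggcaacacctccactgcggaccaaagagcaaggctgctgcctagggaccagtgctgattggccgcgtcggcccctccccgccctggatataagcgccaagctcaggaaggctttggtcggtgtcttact

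Members of the ATF4 list act in serine synthesis, in the folate steps that serine feeds and in amino acid transport, and some of each passed 2-fold. *Phgdh*, the first enzyme of the serine pathway, was at 12 TPM in the sevoflurane control, 13.9 in the desflurane control and 44.1 after 6 h. *Psat1*, the second enzyme, was at 10.8, 14.7 and 39.2 TPM. *Mthfd2*, a mitochondrial folate enzyme, was at 3.53, 3.46 and 18.8 TPM. In each of these the 6 h liver stood above both controls by more than 2-fold. *Psph*, the last enzyme of the serine pathway (6.69, 5.66 and 9.90 TPM), and the folate enzymes *Shmt2* (0.33) and *Aldh1l2* (0.49) did not pass 2-fold. *Asns*, asparagine synthetase, was at 12.4, 18.3 and 47.2 TPM. The amino acid carriers *Slc3a2* (77.8, 80.0 and 172 TPM), *Slc7a1* (1.08, 1.40 and 4.50 TPM) and *Slc7a11* (0.366, 0.235 and 2.81 TPM) also passed against both controls, and the leucine carrier *Slc7a5* (5.77, 6.86 and 12.6 TPM) passed against the sevoflurane control. *Trib3*, a pseudokinase that restrains AKT and ATF4, was at 3.79, 4.31 and 14.9 TPM.

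The other members past 2-fold against the sevoflurane control were *Nupr1* (69.8 to 145 TPM), *Chac1*, which breaks down glutathione (2.36 to 6.89 TPM), and *Ddit4*, an inhibitor of mTORC1 (3.34 to 10.2 TPM). *Atf5*, the most abundant member at 504 TPM in its control and 809 after 6 h, changed by 0.68. *Cth*, which makes cysteine, had the lowest change of the list at -0.96, with 405 and 420 TPM in the controls and 207 after 6 h. The chaperones of the endoplasmic reticulum did not share the pattern: of 30 members of that list, 1 was 2-fold higher and the median was 0.14. That member, *Edem1*, which takes misfolded glycoproteins out of the endoplasmic reticulum, was at 86.8, 102 and 271 TPM, and the abundant members *P4hb* (0.07), *Calr* (-0.15) and *Canx* (0.08) changed little.

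**Figure D4:**
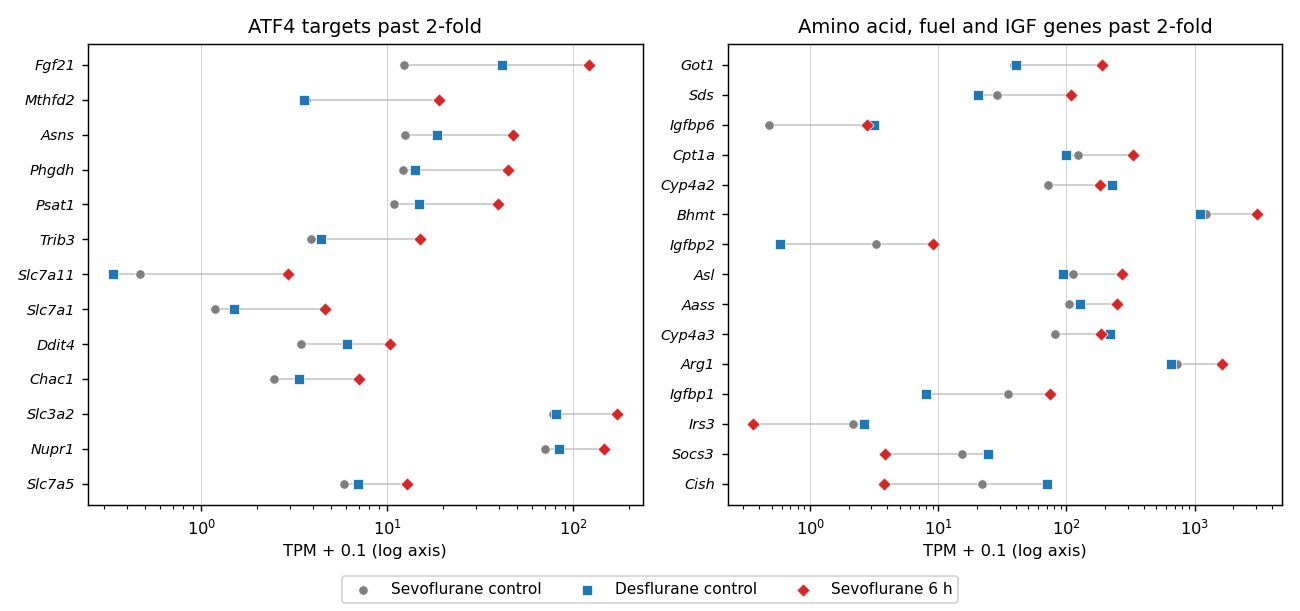
TPM (plus 0.1, log axis) in the sevoflurane control (grey circle), the desflurane control (blue square) and after 6 h of sevoflurane (red diamond) of the 13 ATF4 targets past 2-fold (left) and of the other members past 2-fold of the lists for amino acid breakdown, gluconeogenesis, fatty acid oxidation and the insulin and IGF axis (right). Each ATF4 target is highest after 6 h, whereas *Cyp4a2*, *Cyp4a3*, *Igfbp6*, *Irs3*, *Socs3* and *Cish* are highest in the desflurane control.

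Enzymes that break down amino acids and make urea were partly higher. Of 49 members, all above 2 TPM, 6 were 2-fold higher (12.2%, beside 1.46% of all genes) and 0 were lower. Against both controls 5 of the 6 passed, and the median was 0.15. *Bhmt*, which remethylates homocysteine, was the most abundant of the 6, with 1239 TPM in the sevoflurane control, 1099 in the desflurane control and 3085 after 6 h. *Arg1*, the last enzyme of the urea cycle, was at 726, 659 and 1646 TPM. *Asl*, the step before it, was at 113, 93.4 and 270 TPM. In all of these the controls lay close together and the 6 h liver above them. *Sds*, which turns serine into pyruvate, was at 28.8, 20.2 and 109 TPM, and *Aass*, the first enzyme of lysine breakdown, at 104, 127 and 248 TPM. *Tat*, tyrosine aminotransferase, was just short of 2-fold at 0.99, and *Hpd*, the step after it, changed by -0.20.

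Among the genes of glucose pathways, *Got1* and *Sds*, which feed carbon from amino acids, were higher. These were the 2 of 24 gluconeogenesis genes past 2-fold (8.70% of the 23 above 2 TPM, beside 1.46% of all genes). Both passed against both controls, and the median of the list was 0.12. After 6 h 15 of the 24 were above both controls and 3 below both, beside 46.8% and 31.6% of the genes above 2 TPM. *Pck1*, the gene of the rate-controlling step, was at 1079 TPM in the sevoflurane control, 414 in the desflurane control and 980 after 6 h, so it lay between the controls. Of 32 genes of glycolysis and glycogen, 0 were higher and 1 was lower by 2-fold (3.57% of the 28 above 2 TPM, beside 2.22% of all genes). This was *Hk3*, a hexokinase of leukocytes, with 10.8, 4.18 and 1.65 TPM.

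Genes of fat metabolism differed at single steps. *Cpt1a*, which controls the entry of fatty acids into mitochondria, was at 124 TPM in the sevoflurane control, 99.6 in the desflurane control and 329 after 6 h. With *Fgf21*, *Cyp4a2* and *Cyp4a3* it made up the 4 of 55 members of the oxidation and ketogenesis list past 2-fold, and the list had a median of 0.22. These 4 were 7.55% of the 53 members above 2 TPM, beside 1.46% of all genes, and 2 of them passed against both controls. *Cyp4a2* and *Cyp4a3*, which hydroxylate fatty acids, were at 71.4 and 80.7 TPM in the sevoflurane control and at 181 and 187 TPM after 6 h, but both were highest in the desflurane control (225 and 218 TPM). Their rows overlap on the genome, so reads may be shared between them. Of 27 genes of fatty acid synthesis, *Fads2*, the delta-6 desaturase, was the 1 past 2-fold, with 1283, 1277 and 506 TPM. The row of *Fads2* overlaps those of other genes, *Fth1* among them, so reads may be shared there too. *Fasn*, the fatty acid synthase, had the highest change of that list at 0.96, with 38.3, 63.5 and 75.3 TPM.

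None of the 31 cholesterol genes passed 2-fold in either direction, and the lowest change was that of *Tm7sf2*, a sterol reductase (-0.99). Among 24 genes of bile acids and sterol efflux, *Cyp7a1*, the rate-limiting enzyme of bile acid synthesis, was higher against both controls, with 83.5 TPM in the sevoflurane control, 70.4 in the desflurane control and 194 after 6 h. *Abcg8*, a sterol efflux pump, was lower than its own control (22.7 TPM) but near the desflurane control (7.02 against 7.84 TPM).

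Of 42 members of the insulin and IGF list, 36 were above 2 TPM, and the median was -0.09. By 2-fold, 4 were higher (11.1%, beside 1.46% of all genes) and 3 lower (8.33%, beside 2.22%). *Cish* was at 21.9 TPM in the sevoflurane control, 70.0 in the desflurane control and 3.63 after 6 h. *Socs3*, an inhibitor of STAT3 signaling, was at 15.2, 24.2 and 3.74 TPM, and the insulin receptor substrate *Irs3* at 2.05, 2.51 and 0.257 TPM. All 3 were lowest in the 6 h liver. *Igfbp1*, a binding protein of IGF that insulin represses, was at 35.1, 7.94 and 74.7 TPM, and *Igfbp2* at 3.13, 0.485 and 8.94 TPM. Both were highest after 6 h, but their controls differed by -2.01 and -1.48 on the log2 scale, more than the changes of 1.07 and 1.27. *Igfbp6* was at 0.380 TPM in the sevoflurane control and 2.68 after 6 h, and its change was 1.41 from that control but -0.14 from the desflurane control, and *Igfbp4*, which did not pass 2-fold, changed by 0.46. *Igf1* itself was at 932, 1191 and 774 TPM and changed by -0.27.

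Genes that respond to glucocorticoids and heat shock genes had the next highest medians after ATF4. Of 24 glucocorticoid-responsive genes, 23 were above 2 TPM, 5 were 2-fold higher (21.7%, beside 1.46% of all genes) and 1 was lower. The 2 controls differed from each other by at least 2-fold in 7 members. The median was 0.52 from the sevoflurane control, 0.59 from the desflurane control and -0.13 between the controls. *Zbtb16*, a transcription factor, was at 3.59 TPM in the sevoflurane control, 4.51 in the desflurane control and 13.8 after 6 h. It passed against both controls together with *Arg1* and *Igfbp1*, which other lists hold too. *Lcn2* and *Sgk1* were past 2-fold in opposite directions against the sevoflurane control and lay on the other side of the desflurane control or level with it (*Lcn2* 3.44, 18.5 and 12.7 TPM, *Sgk1* 34.6, 16.4 and 16.6 TPM). *Mt2A*, a metallothionein, was at 1245, 455 and 1424 TPM.

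Heat shock genes were higher by a small amount across the list. Of 26 members, 2 were 2-fold higher and 0 lower. The median was 0.52 from the sevoflurane control, 0.42 from the desflurane control and 0.08 between them. After 6 h 21 members were above both controls, beside 46.8% of the genes above 2 TPM. The constitutive chaperone *Hspa8* was at 237, 255 and 482 TPM in the sevoflurane control, the desflurane control and the 6 h liver. *Hsp90ab1*, the most abundant besides it, changed by 0.39, and the inducible *Hspa1b* reached only 2.03 TPM from 0.480. *Cirbp*, which cold induces, changed by -0.22.

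The list of NRF2 genes, which answer oxidative stress, went both ways. Of 39 members 38 were above 2 TPM, and the median was 0.02. By 2-fold, 3 were higher (7.89%, beside 1.46% of all genes) and 2 lower (5.26%, beside 2.22%). *Gclm*, a subunit of the enzyme that makes glutathione, was at 252, 180 and 101 TPM in the sevoflurane control, the desflurane control and the 6 h liver, and *Osgin1* at 156, 220 and 76.4 TPM. *Slc7a11* was the 1 higher member past both controls, and *Akr1b8* (0.348, 2.92 and 2.04 TPM) lay between them. Of 30 hypoxia-inducible genes, *Ddit4* was the 1 past 2-fold and the median was 0.03.

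Among 41 immediate early and *Gadd45* genes, *Gadd45b* and *Zfp36* were higher and *Gadd45g* and *Dusp6* lower, all 4 against both controls. Each pair is 6.67% of the 30 members above 2 TPM, beside 1.46% higher and 2.22% lower of all genes. *Zfp36*, which destabilizes the mRNA of cytokines, was at 43.6, 41.0 and 97.4 TPM in the sevoflurane control, the desflurane control and the 6 h liver. *Dusp6*, a phosphatase of ERK, was at 28.4, 37.9 and 11.7 TPM. *Myc* changed by -0.39. Of 34 regulators of apoptosis, *Bmf* (34.9, 40.9 and 6.11 TPM) and *Bcl2l11* (8.42, 5.39 and 3.54 TPM), both BH3-only genes that promote cell death, were lower by 2-fold, *Bmf* against both controls. These 2 are 6.90% of the 29 regulators above 2 TPM, beside 2.22% of all genes.

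Clock genes were compared at the same clock time, since the rats were killed at about the same hour. Of 28 members, *Alas1* was higher and *Npas2* and *Upp2* were lower by 2-fold, and the median was -0.02. *Npas2*, a partner of BMAL1, was at 4.16 TPM in the sevoflurane control, 6.39 in the desflurane control and 1.41 after 6 h. *Upp2*, a uridine phosphorylase, was at 35.8, 4.30 and 11.6 TPM, between the controls. *Dbp*, a clock output gene, was at 186, 101 and 175 TPM.

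Growth genes shifted by small amounts. Of 55 genes of ribosome biogenesis, 47 were above both controls after 6 h and 4 below both. Of the 9754 genes above 2 TPM, 46.8% were above both and 31.6% below both. The list had a median of 0.37 from the sevoflurane control and 0.40 from the desflurane control. A single member, *Polr1e*, a subunit of RNA polymerase I, was past 2-fold (2.06 to 5.99 TPM), and *Npm1* and *Ncl*, the most abundant, changed by 0.01 and 0.25. Of 78 cytosolic ribosomal proteins, 0 passed 2-fold, 64 were above both controls (beside the same 46.8%), and the median was 0.16. The median of 44 cell cycle genes was 0.34 from the sevoflurane control and 0.07 from the desflurane control, beside 0.39 between the controls. *Ccnb1*, the mitotic cyclin B1, was at 1.15, 3.62 and 3.89 TPM in the sevoflurane control, the desflurane control and the 6 h liver.

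Genes of the interferon response were lower after 6 h of sevoflurane. In a bulk extract, fewer cells of a type and less RNA per cell cannot be told apart, and this holds for every immune gene that follows. Interferons signal through transcription factors, the IRF family among them, to genes that include the GTPases of the GBP, IRG and Mx families, which attack microbes inside cells. Of 12 such GTPases in the tables, 11 were above 2 TPM and 10 of these were 2-fold lower (90.9%, beside 2.22% of all genes), 9 against both controls. The median was -1.93 from the sevoflurane control, -1.40 from the desflurane control and -0.59 between the controls, and the summed level was 465 TPM in the sevoflurane control, 284 in the desflurane control and 95.1 after 6 h.

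The promoters of the 2 GTPases with the lowest and the 2 with the highest change, among those above 2 TPM that the RefSeq table holds, are printed in the same way, with the core of the interferon response element, GAAANNGAA on either strand, in capitals. Among the GTPases, 5 of the 8 with a promoter held this core (62.5%), as did 22 of 39 antiviral effectors (56.4%), 9 of 27 genes of MHC class I (33.3%) and 1 of 12 of MHC class II (8.33%). It was present in 7.99% of all 27457 promoters and in 6.40% of those of the genes above 2 TPM. *Gbp2* (plus strand, chr2:234005477-234005726) holds the core once and *Gbp5* (plus strand, chr2:233910749-233910998) holds it at 2 places, whereas *Mx1* (minus strand, chr11:50294607-50294856) and *Irgq* (plus strand, chr1:89251596-89251845) do not hold these letters in this window. Of the others, *Irgm*, *Igtp* and *Gbp4*, which was not above 2 TPM, hold the core once and *Ifi47* does not.
Gbp2: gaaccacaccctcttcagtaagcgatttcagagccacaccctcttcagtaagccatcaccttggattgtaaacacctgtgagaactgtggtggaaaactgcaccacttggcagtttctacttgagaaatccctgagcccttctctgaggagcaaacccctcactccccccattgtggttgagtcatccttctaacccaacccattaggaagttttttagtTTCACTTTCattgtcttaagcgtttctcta
Gbp5: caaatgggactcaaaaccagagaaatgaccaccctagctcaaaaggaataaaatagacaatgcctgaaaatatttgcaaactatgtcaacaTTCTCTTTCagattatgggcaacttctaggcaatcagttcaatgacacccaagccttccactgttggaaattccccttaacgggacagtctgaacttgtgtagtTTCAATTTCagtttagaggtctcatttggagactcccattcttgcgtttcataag
Mx1: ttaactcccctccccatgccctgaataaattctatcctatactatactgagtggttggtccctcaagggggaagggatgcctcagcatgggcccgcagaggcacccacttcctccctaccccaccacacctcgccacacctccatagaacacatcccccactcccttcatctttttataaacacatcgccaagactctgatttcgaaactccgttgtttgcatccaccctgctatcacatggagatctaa
Irgq: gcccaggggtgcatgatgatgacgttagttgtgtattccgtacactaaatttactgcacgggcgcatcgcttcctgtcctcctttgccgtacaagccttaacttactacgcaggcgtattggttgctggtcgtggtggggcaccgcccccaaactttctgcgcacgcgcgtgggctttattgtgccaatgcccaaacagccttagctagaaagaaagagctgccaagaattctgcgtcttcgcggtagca

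*RGD1309362*, *MGC108823* and *MGC105567* lie near each other on chromosome 18 of rn6, with starts at 55483059, 55576239 and 55685613. *MGC108823* was at 51.4 TPM in the sevoflurane control, 25.9 in the desflurane control and 5.72 after 6 h, and *MGC105567* at 7.87, 6.00 and 1.16. *Gbp2* was at 30.1, 14.7 and 4.60 TPM and *Gbp5* at 11.8, 4.85 and 1.36. The 6 h liver was lowest in each, and the desflurane control lay between. *Irgm* (56.4, 40.3 and 13.3 TPM), *Ifi47* (27.5, 24.1 and 6.87 TPM), *Mx1* (15.1, 9.28 and 4.09 TPM) and *Mx2* (29.1, 29.3 and 12.4 TPM) also passed against both controls. *Igtp* was at 107, 51.6 and 30.8 TPM and passed against its own control. *Irgq*, a divergent member of the family, was the exception, with 7.55, 6.95 and 11 TPM.

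Upstream of these genes, *Irf1* was at 23.8 TPM in the sevoflurane control, 19.1 in the desflurane control and 4.71 after 6 h. *Irf7* was at 35.4, 21.3 and 16.0 TPM. Both genes were lowest after 6 h, and the 2 controls were closer together for *Irf1*. The receptor kinase gene *Jak1* changed by -0.06 and *Stat3*, which signals for interleukin 6, by 0.52. The whole list of 21 receptors and signaling genes had a median of -0.25, the same as between the controls, with 0 members higher and 4 lower by 2-fold. These 4 are 21.1% of the 19 above 2 TPM, beside 2.22% of all genes.

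Of 53 antiviral effectors, 47 were above 2 TPM, 8 were 2-fold lower (17.0%, beside 2.22% of all genes) and 0 higher. Against both controls 2 of the 8 passed, *Oasl* and *Parp9*. The median was -0.54 from the sevoflurane control, -0.30 from the desflurane control and -0.16 between them. *Parp9*, which works with an E3 ligase on interferon targets, was at 47.1, 43.8 and 19.6 TPM in the sevoflurane control, the desflurane control and the 6 h liver, and its partner *Parp14* at 46.5, 39.1 and 19.3 TPM. *Usp18*, a feedback inhibitor of interferon signaling, was at 26.9, 13.4 and 11.9 TPM, close to the desflurane control. The most abundant member, *Ifi27*, changed by -0.09, and *Ifitm3*, which blocks the entry of viruses, by 0.57.

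Genes that load peptides on MHC class I were lower as well. Of 31 members, 27 were below both controls, beside 31.6% of the genes above 2 TPM. By 2-fold 7 were lower (23.3% of the 30 above 2 TPM, beside 2.22% of all genes), 3 of these against both controls. The median was -0.55. *Psmb8* and *Psmb9*, catalytic subunits of the immunoproteasome, were at 53.2, 45.6 and 17.1 TPM and at 50.2, 38.8 and 16.0 TPM in the sevoflurane control, the desflurane control and the 6 h liver. *Tap1*, which carries peptides into the endoplasmic reticulum, was at 57.1, 30.4 and 16.6 TPM. *B2m*, the shared light chain, was at 982, 769 and 637 TPM. All 4 were lowest after 6 h. The subunits of the constitutive proteasome did not follow: of 31 members 0 passed 2-fold, and the median was 0.14. Of these subunits 27 were above both controls, beside 46.8% of the genes above 2 TPM. Class I heavy chains are near-identical genes, of which *RT1-N2* (-1.61), *RT1-CE1* (-1.25), *RT1-S2* (-1.10) and *RT1-N3* (-1.03) were past 2-fold, with reads that may be shared.

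Of 14 genes of MHC class II, which present peptides on macrophages, dendritic cells and B cells, 10 were above 2 TPM. Of these, 7 were 2-fold lower (70.0%, beside 2.22% of all genes), and 2 of the 7 passed against both controls. The median was -1.04 from the sevoflurane control, -0.44 from the desflurane control and -0.58 between the controls. *Cd74*, the invariant chain, was at 364 TPM in the sevoflurane control, 213 in the desflurane control and 111 after 6 h. *RT1-Ba* was at 50.3, 28.7 and 11.8 TPM and *RT1-Db1* at 33.9, 23.0 and 9.60. *Ciita*, the master regulator of the class, was at 4.26, 2.11 and 1.14 TPM. In each the order was the sevoflurane control, the desflurane control and then the 6 h liver. The summed level of the class was 810, 518 and 326 TPM in that order.

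**Figure D5:**
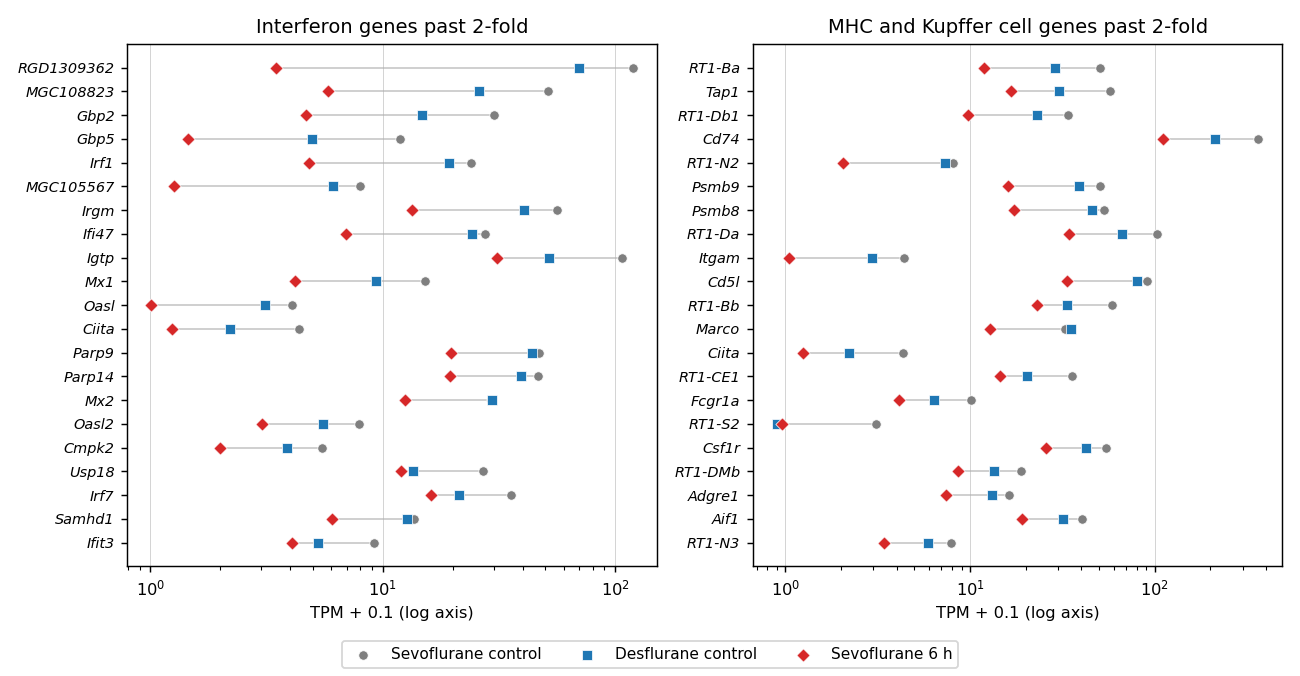
TPM (plus 0.1, log axis) in the sevoflurane control (grey circle), the desflurane control (blue square) and after 6 h of sevoflurane (red diamond) of interferon genes (left) and of MHC and Kupffer cell genes (right) that were 2-fold lower than the sevoflurane control. The red point is the lowest in each row except *RT1-S2*, and the blue point often lies between the other points.

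Markers of leukocytes moved with these genes. All 20 markers of Kupffer cells and macrophages in the tables were below both controls after 6 h, beside 31.6% of the genes above 2 TPM. Of these markers 7 were 2-fold lower (35.0%, beside 2.22% of all genes), 2 of them against both controls. The median was -0.83 from the sevoflurane control, -0.36 from the desflurane control and -0.32 between the controls, and the summed level was 1217, 946 and 720 TPM in the sevoflurane control, the desflurane control and the 6 h liver. *Cd5l*, a protein that macrophages secrete, was at 90.6, 80.0 and 33.4 TPM, and the scavenger receptor *Marco* at 32.6, 35.0 and 12.7 TPM. *Csf1r*, the receptor of macrophage growth factors, was at 54.3, 42.4 and 25.6 TPM, and *Adgre1* (F4/80) at 16.1, 13.1 and 7.29 TPM. The size of the difference varied among the markers: *C1qc* changed by -0.61 and the mannose receptor *Mrc1* by -0.09, from 39.4 to 37.0 TPM. Of 14 pan-leukocyte markers 13 were below both controls, and their summed level was 282, 207 and 145 TPM. *Ptprc* (CD45) was at 13.7, 9.24 and 4.11 TPM and *Rac2* at 29.6, 21.4 and 8.74. How much of the lower interferon and MHC values goes with fewer leukocyte transcripts was not tested.

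Lymphocyte genes were near the limit of 2 TPM. Of 32 T and NK cell markers 9 were above it, and 4 of these were 2-fold lower (44.4%, beside 2.22% of all genes), 0 against both controls. *Klrk1*, an activating receptor of NK cells, was at 12, 6.73 and 3.79 TPM in the sevoflurane control, the desflurane control and the 6 h liver, whereas *Cd4*, which macrophages of the rat also carry, was at 19.1, 21.8 and 18.3 TPM. Of 13 B cell markers, *Cd79b* (2.89, 1.99 and 0.300 TPM) and *Bank1* (2.16, 2.11 and 0.475 TPM) were lower against both controls. Of 14 neutrophil markers 0 were above 2 TPM. The summed level of 16 erythroid markers was 145, 118 and 117 TPM.

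Chemokines were lower at several members. Of 47 chemokines and receptors, 22 were above 2 TPM, 7 were 2-fold lower (31.8%, beside 2.22% of all genes) and 0 higher. The median was -0.18 beside -0.12 between the controls. *Cxcl10*, which interferon induces and which attracts T cells, was at 12.2, 7.09 and 2.02 TPM in the sevoflurane control, the desflurane control and the 6 h liver. *Cxcl1*, which attracts neutrophils, was at 6.77, 3.40 and 1.02 TPM. These 2 passed against both controls. *Ccl6*, one of the most abundant, was at 386, 243 and 159 TPM, and *Ccl9* changed by -0.43. Among 45 interleukins and receptors, *Il33*, an alarmin of the nucleus, was at 78.4, 49.8 and 28.5 TPM, and *Il15*, which sustains NK cells, at 7.62, 4.93 and 2.19 TPM. With *Csf1r* these were the 3 past 2-fold (10.7% of the 28 above 2 TPM, beside 2.22% of all genes). Of 33 Toll-like receptor and NF-kB genes, 0 passed 2-fold, with extremes of -0.77 (*Tlr2*) and 0.67 (*Nfkbia*, the feedback inhibitor of NF-kB).

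Proteins that the liver secretes into plasma were mostly stable. Of 29 acute phase genes, 2 were higher (6.90%, beside 1.46% of all genes) and 1 lower (3.45%, beside 2.22%) by 2-fold. Against both controls 0 of them passed, and the median was -0.04. *Hamp*, which encodes hepcidin, the hormone that holds back iron release, was at 1487 TPM in the sevoflurane control, 893 in the desflurane control and 458 after 6 h. *Wfdc21* was at 3.17, 107 and 25.9 TPM and *Lcn2* at 3.44, 18.5 and 12.7 TPM, so in both the 6 h liver lay between the controls. Of 44 genes of complement and coagulation, 32 were below both controls, beside 31.6% of the genes above 2 TPM. By 2-fold 2 were lower (4.55%, beside 2.22% of all genes). *Mbl2*, a lectin that starts complement, was at 483, 511 and 207 TPM, and the protease *C1s* at 423, 360 and 199 TPM. The abundant *C3* changed by -0.18 and *Vtn* by -0.06.

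Structural and housekeeping groups gave the range of what changed little. Of 19 liver endothelial markers 0 passed 2-fold and the median was -0.01, with *Cdh5* lowest (-0.43) and *Tie1* highest (0.52). Of 21 stellate cell and matrix markers 1 passed, *Acta2*, the smooth muscle actin (6.28, 7.53 and 15.8 TPM in the sevoflurane control, the desflurane control and the 6 h liver), and the vitamin A enzyme *Lrat* of quiescent stellate cells changed by -0.84. None of 9 cholangiocyte markers or of 10 adipocyte and mesothelial markers passed, where the keratin *Krt18* had the highest change (0.75). Of 59 nuclear genes of the respiratory chain 0 passed, and the median was 0.10.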

How the data were processed

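RNA of the left lateral liver lobe was sequenced from 1 rat for each of 4 conditions. The authors trimmed paired-end reads with sickle, mapped them to rn6 with HISAT2, sorted them with SAMtools and ran StringTie with the refGene annotation. The labels and the methods of the study name different Illumina stranded total RNA kits. The deposited tables hold, per gene, an average coverage, FPKM values that the authors' StringTie run scaled to library size, and TPM values. The deposited TPM values were treated as a signal, because the column sum exceeds what TPM allows: the annotated rows alone total 792007 (sevoflurane control), 802963 (sevoflurane 6 h) and 779824 (desflurane control), in addition to rows that StringTie assembled. The assembled rows were not used here.

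Rows no longer than 200 bp were left out, and TPM was summed over rows that share a symbol. The log2 change was calculated with a pseudocount of 1 TPM, which understates changes of genes with low levels. A gene was counted as higher or lower when it was above 2 TPM in either of the 2 libraries and past 2-fold on this scale. No test was made, because each group has 1 library, and the conditions came from the labels. The deposited files give no read counts, so no counting intervals were calculated, and genes of 1 to 4 TPM had a median coverage of between 3.71 and 4.23. Aligned Gb were calculated from how FPKM relates to coverage.

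The members and the lists were chosen with earlier results of these data known. Genes named are the 15 with the highest and the 15 with the lowest change among those past 2-fold against both controls, the members of each list past 2-fold, the 2 most abundant and the extreme members of each list above 2 TPM, and the 10 most abundant genes. Others are said to be named after their values were seen, and some genes that the rule names are not reported here. Promoters are from RefSeq (GRCr8), and symbols were matched exactly, with other names from the RefSeq gene table. Alternatives varied the pseudocount, the limits of TPM, coverage and fold, the scaling (median-of-ratios), the unit (FPKM), how rows were combined and which control was used. Python 3.11.15 was used with numpy 2.4.6 and pandas 2.3.3, and the scripts that call genes were tested on simulated data.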

Additional observations from a re-analysis of the deposited data

Results flagged for a closer look

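Anesthesia for 6 h with sevoflurane and with desflurane, each from its own control, went in opposite directions in 7 genes named here that were past 2-fold against both controls with sevoflurane and changed by more than 0.31 with desflurane, which is the SD of the control difference over genes. No test of the difference was made, with 1 rat for each condition, so it was not tested. Of these, 6 belong to the ATF4 list and were higher with sevoflurane. The log2 change with desflurane was -0.88 for *Mthfd2* (3.46 to 1.42 TPM), -0.73 for *Fgf21* (41.3 to 24.5 TPM), -0.62 for *Psat1* (14.7 to 9.21 TPM), -0.41 for *Phgdh* (13.9 to 10.2 TPM), -0.36 for *Slc7a1* (1.40 to 0.880 TPM) and -0.33 for *Asns* (18.3 to 14.4 TPM). The controls differed on the log2 scale by 1.68 for *Fgf21*, 0.53 for *Asns*, 0.41 for *Psat1*, 0.21 for *Slc7a1*, 0.20 for *Phgdh* and -0.02 for *Mthfd2*. In *Fgf21* and *Asns* the desflurane 6 h value lay above the sevoflurane control (12.2 and 12.4 TPM), and in the others it lay below that control. *Slc7a1* was below 2 TPM in both desflurane libraries. Among genes with a mean of at most 5 TPM over the 2 sevoflurane libraries, as for *Slc7a1*, the SD of the control difference was 0.40. *Adh6*, which was lower with sevoflurane, changed by 0.71 with desflurane (8.36 to 14.3 TPM), and its control difference was -4.12. Below that size, the sign with desflurane was also the opposite one for others, among them *Slc7a11* (-0.25), *Ptprc* (0.22), *RT1-Ba* (0.17) and *RT1-Db1* (0.15).

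Opposite signs of the median with the 2 agents were common, in 25 of the 49 lists, and these differences were not tested. Among the 10 lists with a median of at least 0.5 in size with sevoflurane, 4 had opposite signs. With sevoflurane and desflurane, they were 0.66 and -0.11 for ATF4 targets, 0.52 and -0.19 for heat shock and cold-inducible genes, -1.04 and 0.23 for MHC class II, and -0.83 and 0.06 for Kupffer cell and macrophage markers. Beside these, the medians of the difference between the controls were 0.15, 0.08, -0.58 and -0.32 in the same order.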

How the results depend on the processing

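The counts of 142 higher and 217 lower genes, and of 84 and 95 past both controls, depended on the scale and the limits, and the cause was not tested unless the setting itself shows it. With a pseudocount of 0.1 TPM, 149 genes were lower past both controls. Without a pseudocount, 218 were higher, and 158 lower past both controls. With a limit of 10 TPM, 120 were lower and 54 lower past both controls, and with a limit of 3-fold 37 were higher and 66 lower, 20 and 19 past both controls, since fewer genes can pass. In FPKM, where the same limit and pseudocount weigh more because the values are smaller, 81 were higher and 127 lower, 40 of the lower past both controls. The number of lists with a median of at least 0.5 in size, 10 here, was 2 against the desflurane control and 6 against the mean of both controls. All other counts stayed within 1.5 times.

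Against the desflurane control, the direction of 14 named genes past 2-fold turned: the log2 changes were then -0.37 for *Akr1b8*, 0.05 for *Alas2*, 0.05 for *Cpa1*, -0.32 for *Cyp4a2*, -0.22 for *Cyp4a3*, -0.14 for *Igfbp6*, 1.69 for *Inmt*, -0.51 for *Lcn2*, 0.13 for *Nr0b2*, 0.05 for *RT1-S2*, -0.63 for *Rn18s*, 0.02 for *Sgk1*, 1.25 for *Upp2* and -2.01 for *Wfdc21*. Against the mean of both controls, *Wfdc21* turned as well (-1.06). No paired analysis was possible because each group has 1 library, and for the same reason no replicate could be left out. Without read counts, the precision of values near 2 TPM is unknown.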

Other observations

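Of the genes past 2-fold against both controls, 29 of the 84 higher and 36 of the 95 lower belonged to a list. The others named here were chosen after their values were seen, and TPM values are given for the sevoflurane control, the desflurane control and the 6 h sevoflurane liver. On the high side, *Slc25a25*, a carrier of ATP-magnesium and phosphate, was at 25.0, 51.0 and 105 TPM, and *Slc25a22*, a glutamate carrier, at 65.7, 56.6 and 166 TPM. *Pdhb*, a subunit of pyruvate dehydrogenase, was at 63.2, 63.7 and 130 TPM. *Ces2c*, a carboxylesterase, was at 11.8, 9.62 and 38.9 TPM, and *Cyp17a1*, a steroid hydroxylase, at 24.5, 25.8 and 73.8 TPM. *Inhbe*, a hepatokine of the activin family, was at 96.9, 117 and 279 TPM, and *G0s2*, an inhibitor of triglyceride lipase, at 47.6, 63.7 and 143 TPM.

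Among the lower genes, *Chka*, choline kinase, was at 31.1, 36.2 and 8.63 TPM, *Arrdc3*, an arrestin that acts on adrenergic receptors, at 218, 188 and 86.8 TPM, *Nrep* at 213, 230 and 72.6 TPM and *Stac3* at 32.8, 24.3 and 7.09 TPM. All 15 protocadherin alpha genes in the tables were lower past both controls, which is 15 of the 95, and without them the count was 80. Their levels ranged from 3.20 to 5.60 TPM in the sevoflurane control, from 3.45 to 6.68 in the other control and from 0.473 to 0.693 after 6 h. These genes share their last exons on chromosome 18 of rn6 (29951094 to 30215897), so their rows are not separate measurements.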
